A study of Mus musculus with 6 samples.

Results

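The 35 genes of the T cell receptor complex and the T lineage were taken by gene name from the deposited count table, which listed 54532 genes, and all 35 were found there. They comprise 8 constant and CD3 chains of the receptor, 3 coreceptor chains, 9 signaling proteins, 11 surface receptors and ligands, and 4 transcription factors. RNA-seq was done on bone marrow cells freshly taken from mouse femurs. The 3 libraries called unloaded 1, 2 and 3 came from wild-type mice kept under hindlimb unloading for 4 weeks, in which the hind limbs bear no weight and bone is lost. The other 3, control 1, 2 and 3, came from wild-type mice without unloading. Strain, sex and age are not given in the labels, and neither is the number of animals behind each library. The p-values therefore reflect only how far these libraries vary, which may be technical.

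A T cell recognizes antigen through a pair of variable receptor chains, alpha with beta or gamma with delta, each joined to a constant region. These chains carry no signaling tail and depend on the CD3 gamma, delta, epsilon and zeta chains, whose tails are phosphorylated by the kinase Lck and then bound by the kinase Zap70. The adaptor Lat relays the signal, and the coreceptors CD4 and CD8 bring Lck to receptors engaged with MHC class II and class I. T cells mature in the thymus, and adult marrow is known as a home of recirculating and memory T cells, including regulatory ones, within a tissue made up mostly of myeloid and erythroid cells.

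Cd3g, Cd3d and Cd3e lie together on chromosome 9, with the starts of the divergent pair Cd3g and Cd3d 1355 bases apart and Cd3e 11401 bases beyond Cd3d. Il2ra on chromosome 2, the gene of the interleukin-2 receptor alpha chain, is set beside them because its difference had the opposite sign. RefSeq entries (GRCm38.p6, the same assembly as mm10) were found for 21 of the 35 promoters. The 250 bases before the transcription start are shown 5′ to 3′ on the strand of the gene, with capitals for letters that match a core motif in either orientation. The ETS core searched was CAGGAA and the core for RUNX factors was TGTGGT. For TCF/LEF factors the letters were CTTTGA, and for the zinc finger factors named after GATA they read AGATAA. No matches of different motifs overlapped.
Cd3g, chr9:44980432-44980681, minus strand: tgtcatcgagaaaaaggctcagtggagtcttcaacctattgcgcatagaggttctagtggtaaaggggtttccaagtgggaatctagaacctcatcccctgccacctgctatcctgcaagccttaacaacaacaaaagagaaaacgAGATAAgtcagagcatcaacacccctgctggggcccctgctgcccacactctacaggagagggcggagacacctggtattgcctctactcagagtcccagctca
Cd3d, chr9:44981536-44981785, plus strand: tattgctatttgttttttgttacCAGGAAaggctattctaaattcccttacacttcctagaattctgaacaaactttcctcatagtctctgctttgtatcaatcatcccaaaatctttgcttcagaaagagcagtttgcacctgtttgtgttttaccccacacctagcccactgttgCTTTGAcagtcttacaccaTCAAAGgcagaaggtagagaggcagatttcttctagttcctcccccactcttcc
Cd3e, chr9:45009612-45009861, minus strand: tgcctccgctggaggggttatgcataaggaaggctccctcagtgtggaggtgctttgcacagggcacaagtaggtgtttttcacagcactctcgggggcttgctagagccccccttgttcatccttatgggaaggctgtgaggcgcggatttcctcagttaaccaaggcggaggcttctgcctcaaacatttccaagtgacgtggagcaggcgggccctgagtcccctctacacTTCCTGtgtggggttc
Il2ra, chr2:11642542-11642791, plus strand: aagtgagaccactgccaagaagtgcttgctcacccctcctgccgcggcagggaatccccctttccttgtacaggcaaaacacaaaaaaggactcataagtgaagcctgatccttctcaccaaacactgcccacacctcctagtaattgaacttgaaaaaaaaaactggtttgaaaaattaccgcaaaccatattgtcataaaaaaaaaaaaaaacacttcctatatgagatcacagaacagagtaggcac

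The Cd3d window held 1 ETS and 2 TCF/LEF matches, the Cd3e window 1 ETS match and the Cd3g window 1 GATA match, while none of these letters stood in the Il2ra window. Among 32817 RefSeq promoters the ETS letters occurred in 25.7%, the TCF/LEF letters in 13.8%, the RUNX letters in 14% and the GATA letters in 9.99%. The 21 promoters of the T lineage genes held them in 8, 4, 2 and 1 cases. These matches describe the letters only.

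Depth was similar across libraries, at 15850986 to 16543465 counts in the unloaded and 16727836 to 17775506 counts in the control libraries. The library unloaded 1 stood apart from the other 5, with a score of -51.3 on principal component 1 (34.8% of variance, log2 CPM) where the others had 7.37 to 13.7. Mitochondrially encoded transcripts took 0.439% of its counts, against 1.05% to 1.27% in the other libraries. All T lineage genes had counts in every library, from 2 for Cd40lg to 667 for Tcf7, and 17 of the 35 averaged under 100 counts, so counting error alone is sizeable for many of them. Together they took 0.0312%, 0.0401% and 0.0250% of counts in unloaded libraries 1, 2 and 3, and 0.0232%, 0.0252% and 0.0294% in control libraries 1, 2 and 3. The groups overlapped in this share. Levels below are CPM (read counts relative to library size, scaled by TMM factors), and fold changes are unloaded over control on the log2 scale with their standard error (SE).

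The question of the study design was how marrow transcripts differ after 4 weeks without weight bearing. Most T lineage genes had higher means in unloaded marrow, with 30 of the 34 tested genes positive, where 51.2% of all 15015 tested genes were. Their median log2 fold change was 0.37, against 0.0054 over all tested genes. None of the 34 passed edgeR's quasi-likelihood test at an adjusted p under 0.05, as was so for every tested gene (0% called), and limma-voom and DESeq2 (0.233% of all genes called) also called none of them. At an unadjusted p under 0.05 edgeR gave 7 higher genes (Cd8b1, Trbc1, Thy1, Skap1, Lck, Trdc and Tcf7), against 2.67% of all tested genes, and 2 lower ones (Il2ra and Cd4), against 3.18%. DESeq2 gave 9 such genes in both directions (5.27% of all tested genes) and limma-voom 8 (5.8%). In RNA from whole marrow a change in the number of T cells and a change in RNA per cell cannot be told apart.

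The difference rested in large part on the library unloaded 2. It held the highest level of the 6 libraries for 24 of the 35 genes, where 14.7% of all tested genes peaked in it, and the lowest level for none. Unloaded 1 was highest for 6 genes, against 28.2% of all tested genes, and unloaded 3 for 0, against 16.7%. The control libraries were highest for 5 genes between them, against 15.9%, 12.0% and 12.6% of all tested genes in control 1, 2 and 3. Unloaded 3 was the lowest of all 6 for 10 genes and control 1 for 13. Over all 15015 tested genes, 2061 were lowest in unloaded 2, 2507 in unloaded 3 and 2489 in control 1. Without unloaded 2 the median log2 fold change was 0.15 and 22 of 34 genes (64.7%) were positive, beside 49.6% of all genes then tested. At an unadjusted p under 0.05 edgeR then gave 4 of them (7.19% of all genes tested), against 15 without unloaded 3 (7.01%) and 3 without control 1 (3.1%). The median was 0.40 with 29 of 34 positive without unloaded 1, the library that stood apart.

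**Figure D1:**
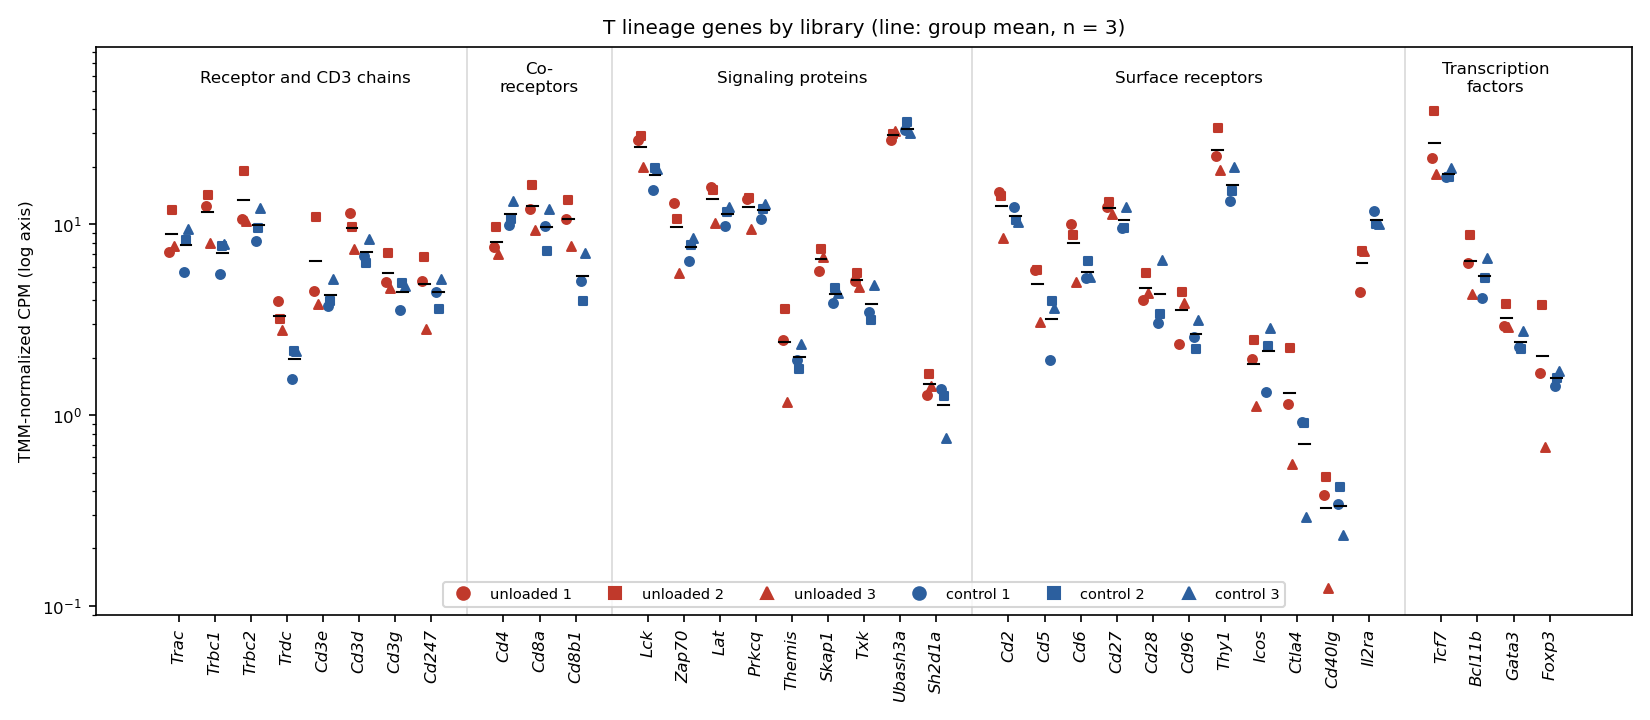
TMM-normalized CPM on a log axis for all 35 genes, grouped by role, with unloaded libraries in red on the left and control libraries in blue on the right of each gene and black lines for group means (n = 3 each). Unloaded 2 (red squares) tops many genes, and Il2ra and Cd4 are the clearest genes with lower values in unloaded marrow.

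**Figure D2:**
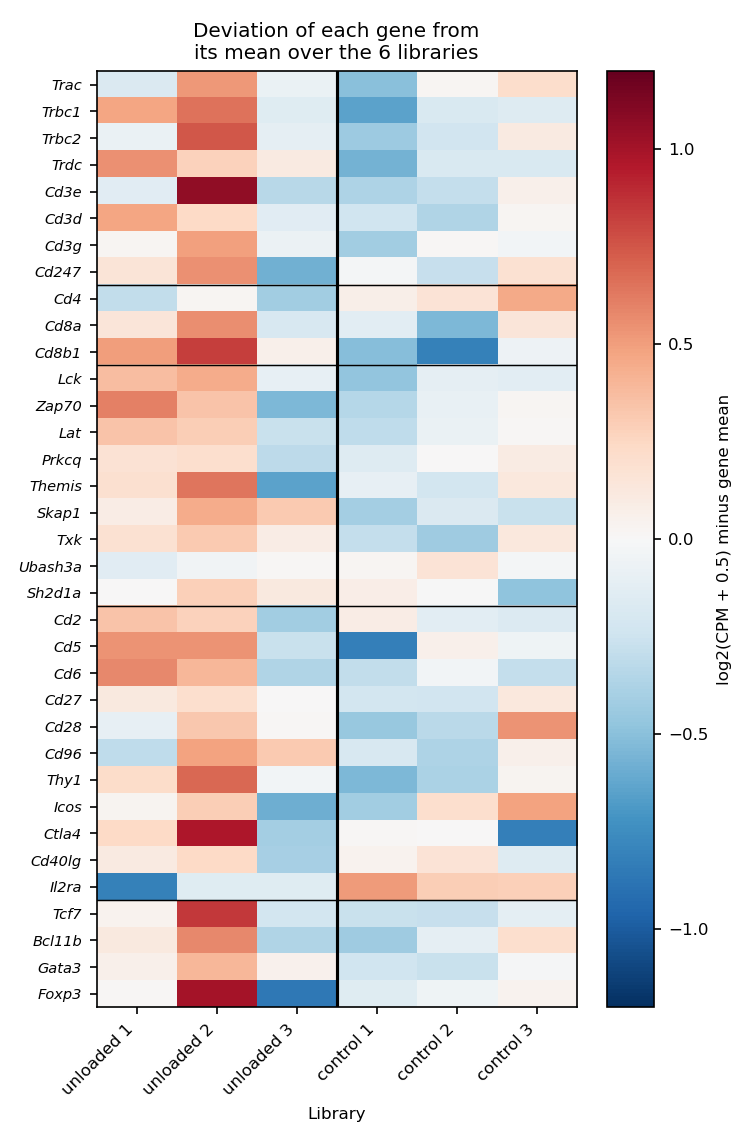
Deviation of each gene from its own mean over 6 libraries, as log2(CPM + 0.5), with libraries in columns (unloaded left) and genes in rows by role. The unloaded 2 column is red for most rows, while unloaded 3 resembles the controls for many receptor and signaling genes.

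All 8 receptor chains had positive fold changes, with a median of 0.42, and summed to 60.2, 82.8 and 47.5 CPM in the unloaded libraries, against 39.3, 46.5 and 55.1 CPM in the controls. Unloaded 3 lay within the range of the controls, and unloaded 1 and 2 lay above all of them. Of the 8 chains 6 peaked in unloaded 2 and 2 in unloaded 1, and 6 were lowest in control 1. No chain passed the test.

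Trac encodes the constant region of the alpha chain. It stood at 7.14, 11.8 and 7.65 CPM in unloaded libraries 1, 2 and 3, against 5.60, 8.26 and 9.45 CPM in control libraries 1, 2 and 3. Unloaded 2 was highest and the other unloaded libraries lay among the controls, for a log2 fold change of 0.19 ± 0.26 (edgeR adjusted p = 0.936). Trbc1, one of the pair of beta constant genes, was at 12.5, 14.2 and 7.96 CPM in unloaded libraries 1, 2 and 3, against 5.49, 7.72 and 7.93 CPM in control libraries 1, 2 and 3. All unloaded values lay above all control values, although unloaded 3 and control 3 differed by little. The fold change came to 0.71 ± 0.24 on the log2 scale (edgeR adjusted p = 0.801). Its neighbor Trbc2 had 10.6, 19.1 and 10.4 CPM in the unloaded libraries, against 8.18, 9.52 and 12.2 CPM in the controls, with overlapping groups (0.43 ± 0.26; adjusted p = 0.890 by edgeR). The Trbc1 and Trbc2 transcripts are identical at 498 of 521 bases of their best local alignment (95.6%), so the split of reads between them is uncertain. Summed over both, the beta constant genes reached 23.1, 33.3 and 18.4 CPM in the unloaded libraries, against 13.7, 17.2 and 20.1 CPM in the controls, where the groups overlapped through control 3. Without unloaded 2, the log2 fold change of Trbc2 was 0.079 and that of Trac -0.074.

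Trdc, the constant gene of the delta chain, marks gamma-delta T cells and is also transcribed in some NK cells and innate lymphoid cells. It was at 3.95, 3.18 and 2.78 CPM in unloaded libraries 1, 2 and 3, against 1.54, 2.17 and 2.17 CPM in control libraries 1, 2 and 3. The groups did not overlap, which was so in this direction for 6 of the 34 T lineage genes and for 5.46% of all tested genes. Its log2 fold change was 0.75 ± 0.28 (edgeR adjusted p = 0.804) and 0.77 without unloaded 2. Of the gamma constant genes, Tcrg-C1 had 0.63 ± 0.39, Tcrg-C4 0.16 ± 0.38 and Tcrg-C2 0.012 ± 0.38, each with overlapping groups, while Sox13 and Blk, genes that other marrow cells express too, had -0.20 ± 0.22 and -0.25 ± 0.16. In all, 3 of the 5 tested genes on the list for gamma-delta T cells were positive with a median of 0.012, and all 9 listed genes summed to 40.9 to 54.1 CPM in unloaded and 53.2 to 59.0 CPM in control libraries. Blk (36.3 ± 8.02 CPM in unloaded and 43.3 ± 4.16 CPM in control marrow; SD, n = 3 each) made up most of this sum. Sox13 averaged 7.39 CPM in unloaded and 8.52 CPM in control marrow, so the sum says little about the gamma constant genes.

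Among the CD3 chains, Cd3e (epsilon; ENSMUSG00000032093, mm10 chromosome 9, 44998740 to 45009627) was at 4.46, 10.9 and 3.83 CPM in unloaded libraries 1, 2 and 3, against 3.72, 3.98 and 5.17 CPM in control libraries 1, 2 and 3. Unloaded 2 alone was high, at 185 counts where the other 5 libraries had 62 to 88. The log2 fold change was 0.58 ± 0.37 (edgeR adjusted p = 0.896) and turned to -0.053 without that library. Cd3d (delta) stood at 11.5, 9.72 and 7.41 CPM in the unloaded libraries, against 6.86, 6.27 and 8.34 CPM in the controls. Here unloaded 1 was highest, the groups overlapped through control 3, and the log2 fold change of 0.42 ± 0.22 was 0.40 without unloaded 2. Cd3g (gamma), the divergent neighbor of Cd3d, had 4.97, 7.07 and 4.63 CPM in the unloaded libraries, against 3.55, 4.94 and 4.76 CPM in the controls, a log2 fold change of 0.33 ± 0.25. Cd247, the gene of the zeta chain, which NK cells use as well, had 5.03, 6.78 and 2.84 CPM in the unloaded libraries, against 4.40, 3.62 and 5.17 CPM in the controls. Its unloaded values spanned those of the controls (0.15 ± 0.31), and its locus overlaps Pou2f1 on the other strand, a gene with 403 to 823 counts. The strand setting of the counting is not given in the sources used here.

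Per kilobase of listed gene length, Trbc2 had the highest level of the 35, averaging, in CPM per kilobase, 19.4 ± 7.19 in unloaded and 14.4 ± 2.92 in control marrow (SD, n = 3 each). Trbc1 averaged 15.4 ± 4.30 in unloaded and 9.41 ± 1.80 in control marrow and Trac 9.49 ± 2.76 in unloaded and 8.31 ± 2.11 in control marrow, on the same scale. Among the other genes Tcf7 (10.1 in unloaded and 7.01 in control marrow) and Ubash3a (8.82 and 9.55 CPM per kilobase) were at similar levels. Lck (8.71 in unloaded and 6.19 in control marrow) and Thy1 (8.24 and 5.38 CPM per kilobase) were close to them. Cd3d led the CD3 chains on this scale with 5.26 in unloaded and 3.94 in control marrow, while Cd3e, Cd3g and Cd247 lay between 0.916 and 1.70 in unloaded and between 0.825 and 1.35 in control marrow. Their listed lengths, from 1815 bases for Cd3d to 5329 for Cd247, enter these levels.

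Variable segments, which are spliced onto the constant regions in T cells with a rearranged receptor, gave few counts. Of 178 listed segments and pseudogenes 34, 50 and 33 were detected in unloaded libraries 1, 2 and 3, and 40, 35 and 37 in control libraries 1, 2 and 3. Their counts summed to 124, 178 and 125 in the unloaded and to 136, 134 and 135 in the control libraries. Unloaded 2 was again the highest, and unloaded 1 and 3 lay below all controls before scaling. After scaling the segments summed to 7.90, 10.5 and 7.72 CPM in the unloaded libraries, against 7.78, 8.08 and 7.93 CPM in the controls. Unloaded 1 then lay among the controls and unloaded 3 just below them. The segments with most counts, Trbv1, Trbv13-2 and Trbv16, had log2 fold changes of -0.30 ± 0.41, -0.10 ± 0.58 and 0.18 ± 0.44, and they were the 3 that could be tested.

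The coreceptor genes differed in direction. Cd8b1 (ENSMUSG00000053044, mm10 chromosome 6, 71322788 to 71337494), the CD8 beta chain gene found mainly on conventional cytotoxic T cells, had the smallest p of all T lineage genes. It was at 10.6, 13.5 and 7.72 CPM in unloaded libraries 1, 2 and 3, against 5.03, 3.98 and 7.05 CPM in control libraries 1, 2 and 3. All unloaded values exceeded all control values, with unloaded 3 close to control 3. Means were 10.6 ± 2.89 CPM in unloaded and 5.35 ± 1.56 CPM in control marrow (SD, n = 3 each), a log2 fold change of 0.99 ± 0.27 (edgeR adjusted p = 0.667, unadjusted p = 0.00378; DESeq2 adjusted p = 0.101). Leaving out each library in turn gave 0.77 to 1.23 with edgeR adjusted p from 0.353 to 0.999. Without the filter on low counts, where edgeR called 0.671% of 27287 genes, Cd8b1 passed at an adjusted p of 0.00781.

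Cd8a encodes the alpha chain that pairs with the beta chain and that some dendritic cells carry without it. It was at 12.0, 16.1 and 9.38 CPM in unloaded libraries 1, 2 and 3, against 9.84, 7.23 and 12.0 CPM in control libraries 1, 2 and 3. The groups overlapped (0.37 ± 0.24; edgeR adjusted p = 0.896). The ratio of Cd8b1 to Cd8a CPM within a library was 0.888, 0.839 and 0.822 in the unloaded libraries, against 0.512, 0.55 and 0.588 in the controls. The groups were apart, also for unloaded 3. The values of each group lay close together, but they rest on 66 to 229 counts of Cd8b1 and 120 to 273 of Cd8a per library. Their closeness therefore does not measure the precision of a value, and the counting error of the ratio was not computed. This ratio is not corrected for gene length, was singled out after its values had been seen and was not tested.

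Cd4, the coreceptor of helper and regulatory T cells, is also transcribed in plasmacytoid dendritic cells and some monocytes and macrophages. It was at 7.65, 9.66 and 6.97 CPM in unloaded libraries 1, 2 and 3, against 9.95, 10.7 and 13.2 CPM in control libraries 1, 2 and 3. All unloaded values lay below all controls, as for 2 of the 34 T lineage genes and 6.40% of all tested genes. The log2 fold change was -0.48 ± 0.20 (edgeR adjusted p = 0.805), and -0.63 without unloaded 2. The ratio of Cd4 to Cd8a was 0.638, 0.601 and 0.743 in the unloaded libraries, against 1.01, 1.48 and 1.1 in the controls. This ratio too was singled out after its values had been seen and was not tested. Of the other ratios computed, Trbc1 to Trbc2 was 1.17, 0.742 and 0.763 in the unloaded libraries, against 0.671, 0.81 and 0.652 in the controls, and Trdc to Trac was 0.554, 0.269 and 0.363 in the unloaded libraries, against 0.276, 0.263 and 0.23 in the controls, both with overlapping groups. Plasmacytoid dendritic cell markers were negative in 10 of 10 tested genes with a median of -0.25, led by Siglech (-0.32 ± 0.12) and Klk1 (-0.58 ± 0.23), and summed to 446 to 511 CPM in unloaded and 535 to 567 CPM in control libraries, with none at 0. Their part in the Cd4 values was not tested.

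**Figure D3:**
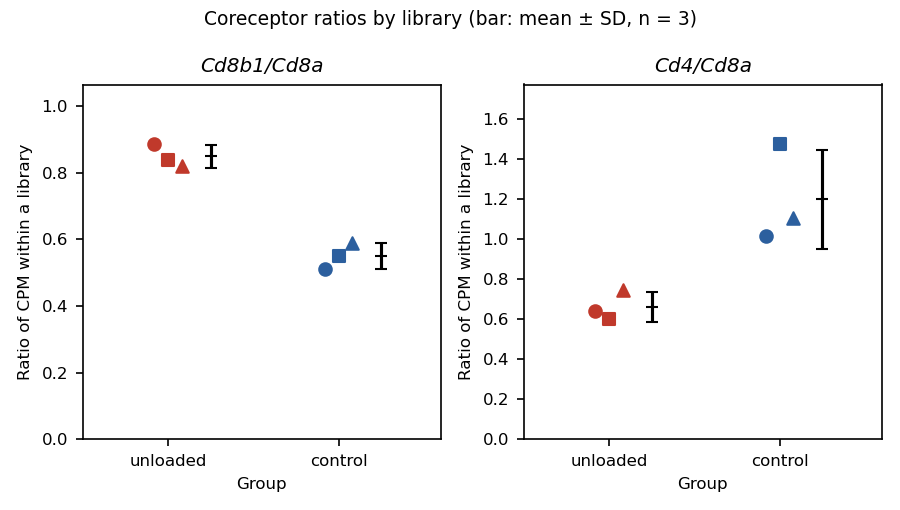
Ratio of Cd8b1 to Cd8a (left panel) and of Cd4 to Cd8a (right panel) in CPM within each library, with unloaded libraries in red at left, controls in blue at right, and mean ± SD (n = 3). The SD is the spread over libraries, and the counting error of each ratio is not shown. Unloaded libraries lie at 0.822 to 0.888 against 0.512 to 0.588 in controls for the first ratio, and at 0.601 to 0.743 against 1.01 to 1.48 for the second.

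Of the 9 signaling genes 8 were positive, with a median of 0.35. Lck, the kinase that phosphorylates the CD3 chains, was at 27.6, 29.1 and 19.9 CPM in unloaded libraries 1, 2 and 3, against 15.2, 19.7 and 19.5 CPM in control libraries 1, 2 and 3. All unloaded values lay above the controls, although unloaded 3 exceeded control 2 by little. Its log2 fold change was 0.49 ± 0.17 (edgeR adjusted p = 0.801), or 0.39 without unloaded 2. Zap70, the kinase recruited to the phosphorylated CD3 tails, had 12.9, 10.7 and 5.56 CPM in the unloaded libraries, against 6.46, 7.78 and 8.46 CPM in the controls, with unloaded 3 the lowest of all and a log2 fold change of 0.36 ± 0.28. The adaptor gene Lat showed 15.7, 15.1 and 10.1 CPM in the unloaded libraries, against 9.84, 11.6 and 12.4 CPM in the controls. Both genes were high in unloaded 1 and 2 and not in unloaded 3. For Lat the log2 fold change was 0.28 ± 0.20.

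Skap1, an adaptor that links receptor signaling to integrin adhesion, was at 5.67, 7.42 and 6.73 CPM in the unloaded libraries, against 3.89, 4.64 and 4.35 CPM in the controls. It was one of the 6 genes with every unloaded library above every control, and its log2 fold change of 0.62 ± 0.21 (edgeR adjusted p = 0.801) was 0.53 without unloaded 2. Txk, a Tec family kinase, had 5.03, 5.54 and 4.69 CPM in the unloaded libraries, against 3.49, 3.13 and 4.82 CPM in the controls, overlapping through control 3 (0.42 ± 0.24). Prkcq, the protein kinase C theta gene, had the smallest difference of the signaling genes, with 13.6, 13.8 and 9.51 CPM in the unloaded libraries, against 10.7, 12.0 and 12.8 CPM in the controls, a log2 fold change of 0.055 ± 0.19. Its groups overlapped fully.

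The low genes Themis and Sh2d1a varied within their groups. Themis, needed for thymic selection, had 2.49, 3.59 and 1.17 CPM in the unloaded libraries, against 1.94, 1.75 and 2.35 CPM in the controls (0.26 ± 0.39), from 19 to 61 counts. Sh2d1a, the SAP adaptor gene, had 1.27, 1.65 and 1.42 CPM in the unloaded libraries, against 1.37, 1.27 and 0.763 CPM in the controls (0.35 ± 0.36). In both the groups overlapped. Ubash3a, which encodes a regulator that dampens receptor signaling, averaged 29.4 ± 1.53 CPM in unloaded and 31.8 ± 2.19 CPM in control marrow (SD, n = 3 each). It was at 27.7, 29.6 and 30.7 CPM in the unloaded libraries, against 31.1, 34.2 and 30.0 CPM in the controls. Here unloaded 2 did not stand out and the groups overlapped (-0.11 ± 0.12; edgeR adjusted p = 0.924).

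**Figure D4:**
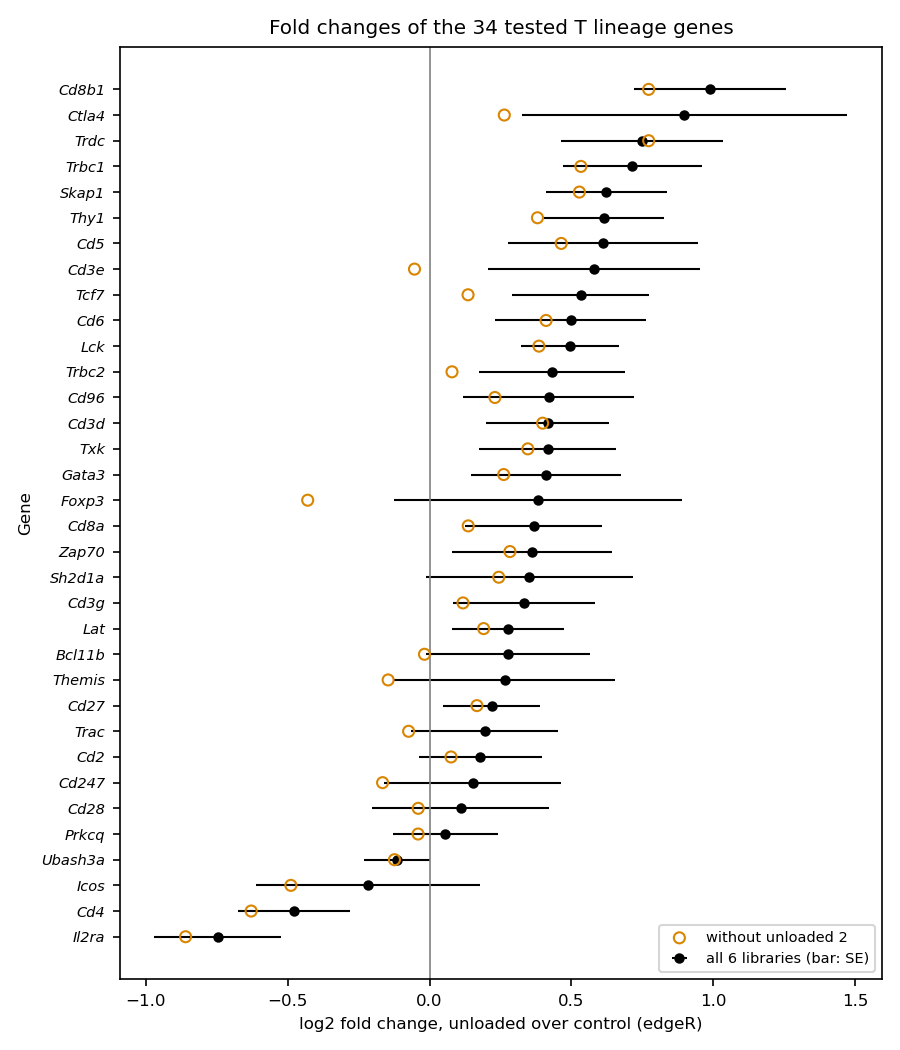
Log2 fold changes (unloaded over control, edgeR) of the 34 tested genes with SE bars for all 6 libraries, and open orange circles for the fit without unloaded 2. Cd8b1 lies at 0.99 and Il2ra at -0.75, and without unloaded 2 the Cd3e and Foxp3 values change sign.

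Among the 11 surface genes 8 of 10 tested were positive, with a median of 0.32. Thy1, a surface glycoprotein of T cells that innate lymphoid and some stem and stromal cells share, was at 22.9, 31.9 and 19.2 CPM in unloaded libraries 1, 2 and 3, against 13.3, 14.9 and 20.1 CPM in control libraries 1, 2 and 3. Unloaded 1 and 2 lay above all controls and unloaded 3 just below control 3. The log2 fold change was 0.61 ± 0.21 (edgeR adjusted p = 0.801, or 0.0466 without the filter on low counts). Cd5 and Cd6 are neighboring genes on chromosome 19 for receptors that restrain T cell signaling. Cd5 had 5.73, 5.77 and 3.09 CPM in the unloaded libraries, against 1.94, 3.98 and 3.64 CPM in the controls (0.61 ± 0.34), and Cd6 had 10.1, 8.84 and 5.0 CPM in the unloaded libraries, against 5.26, 6.39 and 5.29 CPM in the controls (0.50 ± 0.26). Each was high in unloaded 1 and 2, while unloaded 3 lay among the controls for Cd5 and below them for Cd6.

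Cd2, an adhesion receptor of T and NK cells, had 14.8, 14.1 and 8.52 CPM in the unloaded libraries, against 12.3, 10.5 and 10.3 CPM in the controls (0.18 ± 0.22). The TNF receptor family gene Cd27 had 12.3, 13.0 and 11.4 CPM in the unloaded libraries, against 9.61, 9.58 and 12.3 CPM in the controls (0.22 ± 0.17), and its locus overlaps Vamp1 on the other strand, a gene with 454 to 752 counts. The groups overlapped for both genes. Cd96, a receptor of T and NK cells, had 2.36, 4.42 and 3.89 CPM in the unloaded libraries, against 2.57, 2.23 and 3.17 CPM in the controls (0.42 ± 0.30), with unloaded 2 and 3 above the controls and unloaded 1 among them.

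The costimulatory receptor genes Cd28, Icos and Ctla4 lie side by side on chromosome 1. Cd28 had 4.01, 5.54 and 4.38 CPM in the unloaded libraries, against 3.03, 3.38 and 6.52 CPM in the controls, with the highest value in control 3 (0.11 ± 0.31). Icos had 1.98, 2.47 and 1.11 CPM in the unloaded libraries, against 1.32, 2.29 and 2.88 CPM in the controls (-0.22 ± 0.39). Ctla4, the inhibitory counterpart of Cd28 that regulatory T cells express constitutively, had 1.15, 2.24 and 0.556 CPM in the unloaded libraries, against 0.915, 0.904 and 0.294 CPM in the controls (0.90 ± 0.57, or 0.26 without unloaded 2), on 5 to 38 counts. All of these overlapped between groups, and unloaded 3 was low for Icos and Ctla4. Cd40lg, the CD40 ligand gene of activated helper cells, was the 1 gene below the filter on low counts, with 2 to 8 counts in the unloaded and 4 to 7 counts in the control libraries.

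Il2ra (ENSMUSG00000026770, mm10 chromosome 2, 11642807 to 11693193) encodes the receptor chain that regulatory and activated T cells carry and that precursor B cells and some innate lymphoid cells also express. It was at 4.40, 7.25 and 7.28 CPM in unloaded libraries 1, 2 and 3, against 11.7, 10.1 and 9.98 CPM in control libraries 1, 2 and 3. All unloaded values lay below all control values, and unloaded 1 was the lowest. Means were 6.31 ± 1.66 CPM in unloaded and 10.6 ± 0.982 CPM in control marrow (SD, n = 3 each), a log2 fold change of -0.75 ± 0.22 (edgeR adjusted p = 0.724, unadjusted p = 0.0069; DESeq2 adjusted p = 0.241). It had -0.54 without unloaded 1 and -0.86 without unloaded 2. Genes of thymic precursors, several of which B cell precursors share, were negative in 7 of 11 tested with a median of -0.16, and Rag1 had -0.66 ± 0.19, Rag2 -0.53 ± 0.29, Dtx1 0.22 ± 0.28 and Dntt 0.058 ± 0.15. B cell markers were negative in 9 of 12 tested genes with a median of -0.17, and Vpreb3 had -0.74 ± 0.14, Ebf1 -0.40 ± 0.15, Cr2 0.27 ± 0.28 and Fcer2a 0.15 ± 0.20. They summed to 1388 to 2996 CPM in unloaded and 1969.9 to 3669 CPM in control libraries, with none at 0. This sum largely followed Ighm, with 12684 to 47783 counts per library, where the next highest gene, Cd79a, had 1713 to 2874. The part of these precursor and B cell genes in the Il2ra values was not tested.

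The 4 transcription factor genes were positive, with a median of 0.40. Tcf7, which encodes the TCF-1 factor of T cell identity and of naive and memory cells, was at 22.2, 39.3 and 18.4 CPM in unloaded libraries 1, 2 and 3, against 17.8, 17.7 and 19.8 CPM in control libraries 1, 2 and 3. The 2 highest values were unloaded, with unloaded 2 far above the rest and unloaded 3 among the controls. Its log2 fold change of 0.53 ± 0.24 (edgeR adjusted p = 0.847) was 0.14 without unloaded 2. Bcl11b, which holds cells in the T lineage, had 6.24, 8.78 and 4.32 CPM in the unloaded libraries, against 4.12, 5.24 and 6.64 CPM in the controls (0.28 ± 0.29). Gata3, a factor of helper type 2 and innate lymphoid cells as well, had 2.93, 3.83 and 2.90 CPM in the unloaded libraries, against 2.29, 2.23 and 2.76 CPM in the controls, with all unloaded values above the controls (0.41 ± 0.26; edgeR adjusted p = 0.896).

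Foxp3, the master factor of regulatory T cells, was low and uneven at 1.66, 3.77 and 0.679 CPM in the unloaded libraries, against 1.43, 1.57 and 1.70 CPM in the controls, or 26, 64 and 11 counts against 25, 26 and 29. Unloaded 2 was highest and unloaded 3 lowest of all. Its log2 fold change was 0.38 ± 0.51 with all libraries and -0.43 without unloaded 2. Relative to Cd3e the Foxp3 level was 0.371, 0.346 and 0.177 in the unloaded libraries, against 0.385, 0.394 and 0.33 in the controls, with unloaded 1 and 2 near the controls and unloaded 3 below them. Il2ra and Ctla4, which regulatory T cells share, had opposite signs.

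Pathway genes outside the 35 did not show the same balance. Of 24 genes of proximal receptor signaling 10 were positive and 14 negative, with a median of -0.032, and Sh2d2a (0.36 ± 0.22), Nck1 (-0.18 ± 0.12) and Sit1 (-0.47 ± 0.32) were among those with the smallest p by direction. Genes further downstream were positive in 7 of 20, with a median of -0.033, and Dgka (0.22 ± 0.14), Malt1 (-0.28 ± 0.15) and Bcl10 (-0.34 ± 0.18) were named by the same rule. Many of these genes are also transcribed in myeloid and B cells. None was called by edgeR, and none had an unadjusted p under 0.05 in either list.

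Genes of resting and memory T cells were positive in 11 of 23 tested genes with a median of -0.012. Ms4a4b, a membrane protein gene of T and NK cells, had a log2 fold change of 0.50 ± 0.21. Ms4a6b had 0.35 ± 0.16 on 742 to 1269 counts and was highest in unloaded 1 (80.9 CPM). In unloaded 2 it was at 52.3 CPM, below control 1 (55.1 CPM) and control 2 (53.8 CPM), and which cells gave it was not tested. Klf2 and Satb1, which B and myeloid cells also express, had -0.30 ± 0.18 and -0.17 ± 0.10. Helper and regulatory subset genes were positive in 10 of 15 tested, with a median of 0.11. Tnfrsf18, the GITR gene that regulatory T cells express, averaged 6.54 ± 0.630 CPM in unloaded and 4.56 ± 0.851 CPM in control marrow (SD, n = 3 each; 0.52 ± 0.22). It was the 1 gene of this list with all unloaded libraries above all controls, as were 5.46% of all tested genes. Its level was 6.75, 5.83 and 7.04 CPM in unloaded libraries 1, 2 and 3, whereas Foxp3 was highest in unloaded 2 and lowest in unloaded 3. Tbx21 had 0.28 ± 0.24, Lrrc32 -0.50 ± 0.44 and Zbtb7b -0.12 ± 0.12. The effector cytokine genes were barely detected, with Il17a at 0 to 2 counts per library, Il2 at 0 to 5, and Il22 at 0 in all 6. Ptcra, the surrogate alpha chain gene of thymic precursors, had 0 to 3 counts.

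Other cell types that transcribe some of the 35 genes were measured alongside. NK cell markers were positive in 15 of 17 tested genes, 6 of them with all unloaded libraries above all controls (5.46% of all tested genes), with a median of 0.35, led by Gzma (0.98 ± 0.26) and Klra4 (0.84 ± 0.29), the second from a family of close paralogs. Nkg7 and Il18rap were at -0.011 ± 0.12 and -0.032 ± 0.11. The list held 18 symbols, of which Cd244 was not found by that name and is left out of these counts and sums. Under the name Cd244a it had 0.88 ± 0.20 (edgeR adjusted p = 0.524, DESeq2 adjusted p = 0.0216), with all unloaded libraries above all controls. The NK markers summed to 343 to 364 CPM in unloaded and 308 to 371 CPM in control libraries, with none at 0 and with unloaded 2 not above the rest. Il18rap (177 ± 12.1 CPM in unloaded and 181 ± 21.0 CPM in control marrow) and Nkg7 (83.9 ± 8.89 CPM in unloaded and 84.5 ± 9.87 CPM in control marrow; SD, n = 3 each) made up most of this sum. Markers of group 2 innate lymphoid cells were testable for 3 of 10 (Il9r 0.83 ± 0.34, Il17rb 0.46 ± 0.20 and Il1rl1 -0.0069 ± 0.12), Areg was at 0 in all libraries, and the list summed to 40.9 to 50.2 CPM in unloaded and 36.5 to 41.0 CPM in control libraries. Il1rl1, at 28.7 CPM on average in unloaded and 28.9 CPM in control marrow, made up most of this sum. Whether NK or innate lymphoid cells had a part in the T lineage values was not tested.

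Markers of the main marrow lineages had small median differences, although DESeq2 called single genes among them (0.233% of all tested genes). These were Cx3cr1 of the monocyte and macrophage list (DESeq2 adjusted p = 8.99e-04) and Hbb-bs of the erythroid list (DESeq2 adjusted p = 0.0374). In the B cell list above DESeq2 called Vpreb3 (adjusted p = 0.00432), and it called 0 neutrophil markers. The median was -0.054 for monocytes and macrophages, which summed to 7989 to 9619 CPM in unloaded and 8645 to 10125 CPM in control libraries, and -0.068 for neutrophils. It was 0.14 for erythroid cells, which summed to 6373 to 8094 CPM in unloaded and 5176 to 6144 CPM in control libraries. The erythroid sum, like 24 of the T lineage genes, was highest in unloaded 2, at 8094 CPM against 6373 and 6727 CPM in the other unloaded libraries. In these lists Cx3cr1 (-0.67 ± 0.11) and Ly6c2 (-0.22 ± 0.15), Fcgr1 (0.74 ± 0.30) and Ccr2 (0.36 ± 0.15), Ly6g (-0.40 ± 0.14) and Elane (-0.14 ± 0.12), Retnlg (0.19 ± 0.14) and Mmp8 (0.11 ± 0.11), and Hbb-bs (0.55 ± 0.13), Hba-a1 (0.47 ± 0.14), Epor (-0.049 ± 0.12) and Car2 (-0.056 ± 0.27) had the smallest p by direction.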

How the data were processed

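Total RNA from femur marrow was extracted with TRNzol and prepared with a NEBNext Ultra RNA library kit, per the labels' protocols. The submitters' processing notes name CASAVA, HISAT2 2.0.5, featureCounts 1.5.0-p3 and the build mm10. Annotation release, strand setting and handling of multiply aligned reads are not given there. The authors deposited raw read counts per gene, with gene lengths and positions. Genes were kept here by filterByExpr (15015 of 54532), scaled with TMM and compared in edgeR 4.0.16 (glmQLFit, glmQLFTest; R 4.3.3) across all 6 libraries, with Benjamini-Hochberg adjustment over all tested genes and a threshold of 0.05. The SE is the absolute log2 fold change over the square root of F. The scripts were tested on simulated data. Without molecular identifiers counting error is a lower limit, and 3 counts correspond to 0.169 to 0.189 CPM.

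The members and gene lists were chosen with earlier results of these data known. Members averaging at least 1 CPM are given in every library, and each of 13 lists by the 2 tested genes of smallest p per direction, apart from some that are not reported here. All 15 library pairs differed beyond sampling noise (chi-square per degree of freedom 7.20 to 38.3). Alternatives were scaling by RLE or the upper quartile, DESeq2 1.42.0, limma-voom (limma 3.58.1), no low-count filter, at least 1 CPM in 3 libraries, a replicate block and each library left out.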

Additional observations from a re-analysis of the deposited data

How the results depend on the processing

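edgeR called 0 genes over all genes with RLE or upper-quartile scaling, as did limma-voom and the filter of at least 1 CPM in 3 libraries, against 35 by DESeq2, 183 without a low-count filter and 0 to 5 with each library left out. T lineage genes called were 2 (Cd8b1 and Thy1, edgeR adjusted p of 0.00781 for Cd8b1) without a low-count filter and 0 in each other alternative. With the replicate number as a block, 1 gene was called over all genes, 0 of them T lineage genes, and the median was 0.37. Same-numbered libraries did not deviate together (correlations of deviations -0.063 to 0.031), so the number is not taken to pair them. The median over T lineage genes ran from 0.15 without unloaded 2 to 0.51 without unloaded 3. Of 34 tested genes 22 were positive and 3 negative with every library left out in turn, and 9 changed sign. Their ranges of log2 fold changes were -0.074 to 0.36 for Trac, -0.053 to 0.84 for Cd3e, -0.17 to 0.42 for Cd247, -0.040 to 0.21 for Prkcq, -0.15 to 0.59 for Themis, -0.091 to 0.54 for Cd28, -0.49 to 0.044 for Icos, -0.018 to 0.49 for Bcl11b and -0.43 to 0.79 for Foxp3. Of these changes of sign 8 came without unloaded 2. Genes that kept their sign also moved, to 0.26 for Ctla4, 0.14 for Cd8a, 0.12 for Cd3g, 0.38 for Thy1, 0.23 for Cd96 and 0.26 for Gata3 without unloaded 2, and to 0.10 for Zap70, 0.038 for Cd2, 0.30 for Cd6, 0.26 for Cd3d and 0.17 for Lat without unloaded 1. The cause was not tested.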
